A study of Chlamydomonas reinhardtii with 4 samples.

Results

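The genes described here encode protein subunits of the mitochondrial ribosome of the unicellular green alga Chlamydomonas reinhardtii. They were chosen by symbol alone, as the genes named MRPL (large subunit) or MRPS (small subunit) followed by a number, and 36 of the 17741 genes in the tables carry such a symbol, 22 for the large and 14 for the small subunit. The study set cultures of wild-type strain FACHB-1121, grown in TAP medium, with and without silver nanoparticles (AgNPs) at 0.5 mg/L, and sampled each at 2 h and 12 h. The 4 groups, untreated and exposed at each time, hold 1 messenger RNA sequencing library each. With 1 library per group no difference could be set against a replicate error, so differences are given by their size, with no p-value. Libraries came from whole cultures, in which a level that differs in every cell and one that differs in a fraction of cells cannot be told apart.

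Mitochondrial ribosomes translate the few proteins that the mitochondrial genome still encodes, which in this alga are mostly subunits of the respiratory chain. In Chlamydomonas the ribosomal RNAs come from the mitochondrial genome, where their genes are broken into scrambled pieces, while the ribosomal proteins are made in the cytosol from nuclear transcripts and imported. The large subunit joins amino acids at its peptidyl transferase centre and releases the chain through an exit tunnel, and the small subunit reads the messenger RNA at its decoding site. Many of the proteins descend from bacterial ones and keep their numbers, and others are found in mitochondria only.

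Values were FPKM, fragments scaled to transcript length and library size, so levels can be compared between genes. The FPKM sums of the libraries ran from 492502 in the 2 h control to 1663726 in the 12 h AgNP library. How the libraries were scaled to each other is not given in the sources used here, and the depth behind the values is unknown. The spacing of low values in the other libraries gave a depth of 0.363 to 0.566 of that of the 2 h control, an estimate that rests on a minority of low genes and also holds the unknown scaling. Transcripts that mark a green alga were plentiful in all 4 libraries, with RBCS2, a Rubisco small subunit gene, between 6328 and 26431 FPKM. All 36 members matched a protein-coding locus of RefSeq's table, and they lie on 13 chromosomes. The closest neighbours were MRPL21 (Cre09.g388550, chromosome 9, 2863961 to 2866414) and MRPL36 (Cre09.g388150, chromosome 9, 2913539 to 2915530), with 10 genes between them. As deposited, the locus of MRPS12 is wholly covered by that of another gene, Cre02.g144350, at 2.73 to 7.38 FPKM. The end of MRPS12 is the only 1 of the 36 that differs from RefSeq's, so the extent of this overlap is uncertain. Without strand information reads of these 2 genes cannot be told apart where they overlap.

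Mitochondrial ribosomal protein transcripts were scarce beside those of the other ribosomes. Their median level was 6.0 FPKM at 2 h and 5.83 at 12 h without AgNPs, and 8.47 and 7.74 with them. Plastid ribosomal protein genes, 35 in number, had medians between 126 and 333 FPKM, and 64 cytosolic ones had medians between 2562 and 11485. All 36 members together held 0.0572%, 0.0272%, 0.0362% and 0.0285% of the FPKM sum in the same order (controls at 2 h and 12 h, then AgNP libraries), against 49.8% to 56.5% for the cytosolic list. The members were nevertheless above most genes, since the median member stood at percentile 84.4 to 86.8 of all 17741 genes in each library, and 0 of the 36 were listed at 0 in any library.

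**Figure D1:**
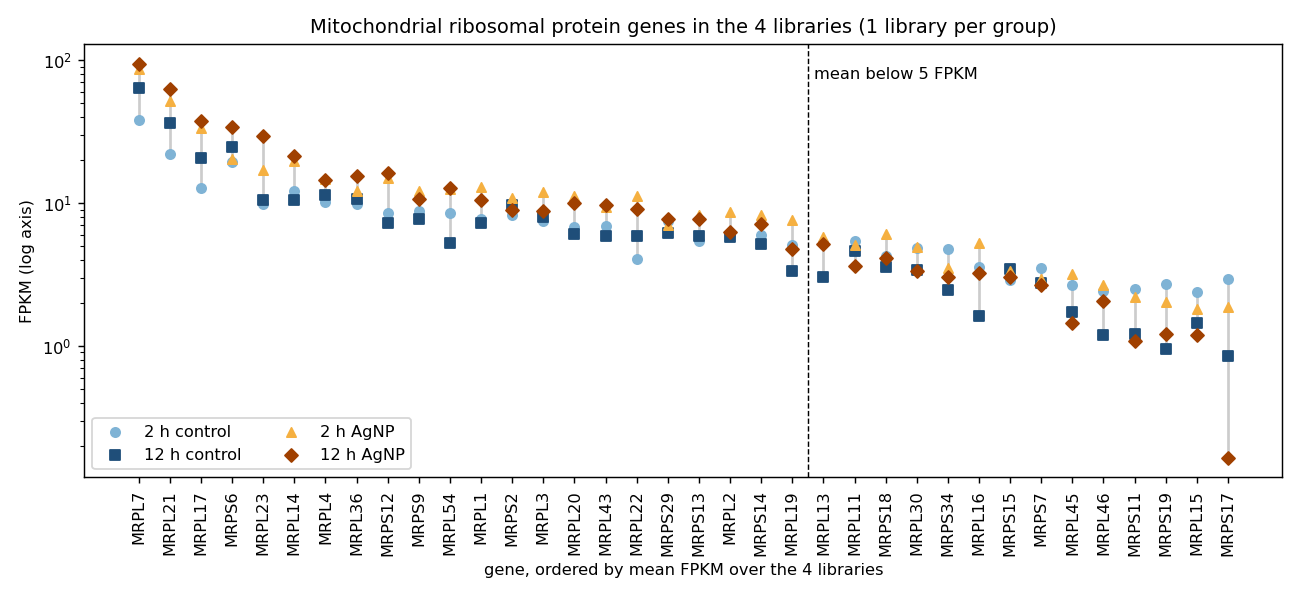
FPKM on a log axis of the 36 mitochondrial ribosomal protein genes in the 4 libraries, ordered by their mean, with a grey line from the lowest to the highest library of each gene. MRPL7, MRPL21 and MRPL17 head the order, and the genes right of the dashed line have a mean below 5 FPKM.

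The members differed widely among themselves. MRPL7 (Cre06.g293700, chromosome 6, 6614711 to 6616474), which carries the number of a bacterial stalk protein, was the most abundant, with 38.2 FPKM at 2 h and 64.1 at 12 h in the controls, and 86.8 and 94.5 at the same times with AgNPs. MRPL21, a large-subunit protein of bacterial descent, followed at 22.1, 36.5, 51.7 and 62.4 FPKM in the same order, and MRPL17 (Cre03.g181350, chromosome 3, 5091226 to 5093347), whose bacterial counterpart sits near the tunnel exit, at 12.7, 20.7, 33.3 and 37.3. These 3 genes shared 1 order of libraries, with the untreated cells of 2 h lowest, then those of 12 h, and the exposed cells of 2 h below those of 12 h. The libraries as a whole ran in that order too, both by FPKM sum and by the median of genes averaging at least 5 FPKM. That median was 10.8, 12.1, 14.0 and 16.4 FPKM, so the order is not particular to these 3 genes. MRPS6, the counterpart of a bacterial protein of the small subunit's platform, was the most abundant of the small-subunit genes, at 19.5, 24.6, 20.3 and 33.9 FPKM. MRPL23, whose bacterial counterpart lies at the tunnel exit, came next with 9.82, 10.4, 17.1 and 29.7. For MRPS6 the 12 h AgNP library was highest and the other 3 lay close together, and for MRPL23 both AgNP libraries lay above both controls.

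At the low end stood MRPS17 (Cre07.g337800, chromosome 7, 3722996 to 3724681), named for a bacterial protein that binds ribosomal RNA early in assembly, at 2.92, 0.846, 1.86 and 0.165 FPKM, followed by MRPL15, MRPS19, MRPS11 and MRPL46 with means of 1.71 to 2.09. MRPS17 was the only member under 0.8 FPKM in any library, and that value came from the 12 h AgNP library. The order of the members was similar in all 4 libraries, with Spearman coefficients over the 36 genes between 0.940 and 0.986, given as a description since each library scales all its genes together. Large-subunit genes had medians of 6.84, 5.88, 11.2 and 9.32 FPKM and small-subunit genes of 5.10, 4.36, 6.56 and 5.64. The large-subunit median was thus the higher of the pair in each library, while the ranges overlapped widely.

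The comparison of exposed with untreated cells at 2 h asks for the early response to AgNPs. Ratios were taken as log2 of FPKM + 1, which understates the difference of low genes, over the 3271 genes that averaged 5 FPKM or more in the 4 libraries. Of the 36 members 22 reached that mean, 15 of the large and 7 of the small subunit. MRPL22 and MRPL19 reached it only through their AgNP libraries, since their means over both controls were 4.99 and 4.24 FPKM, and MRPL11 missed it only through them, with a control mean of 5.03. The nearest members below were MRPL13 at 4.80 and MRPL11 at 4.69 FPKM, and the nearest above were MRPL19 at 5.20 and MRPS14 at 6.65. The others below it were MRPS18, MRPL30, MRPS34, MRPL16, MRPS15, MRPS7 and MRPL45, at means from 4.51 down to 2.26 FPKM, and the 5 named at the low end.

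At 2 h the compared mitochondrial ribosomal protein genes stood about where the median compared gene stood. The 22 compared members had a median log2 ratio of 0.52 against 0.48 for all compared genes, 14 of them lay above that median gene, and 21 had a positive ratio. At least 2-fold higher with AgNPs were 4 of the 22 (18.2%) and 0 were lower, beside 22.0% and 1.62% of all compared genes, so the members' shares are near the background. Over all 36 members 4 (11.1%) were at least 2-fold higher and 0 lower, beside 5.14% and 1.36% of the 16071 genes above 0 in any library, most of which were scarcer than the median member. Against those 16071 genes the 36 members stood higher, with a median log2 ratio of 0.41 against -0.0044 and 28 of 36 above the median gene, and with the filter raised to 20 FPKM the 4 members left lay 0.37 above the median gene. With ratios centred on the median compared gene 0 were at least 2-fold higher and 0 lower, where the background was 5.47% and 6.97%.

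The 4 highest were all large-subunit genes. MRPL22 (Cre05.g242950, chromosome 5, 1667942 to 1672133), whose bacterial counterpart lines the exit tunnel, stood at 4.09 FPKM untreated and 11.2 exposed at 2 h, against 5.89 and 9.01 at 12 h. Its log2 ratio at 2 h was 1.26, beside 1.32 for MRPL17, 1.19 for MRPL21 and 1.16 for MRPL7. MRPL17, MRPL21 and MRPL7 are also the 3 most abundant members, whereas MRPL22 ranked below the middle of the 22. With all libraries scaled to equal sums none of these 4 was 2-fold higher and 2 of the 22 were 2-fold lower, beside 0.795% higher and 35.6% lower of all compared genes, and the ratios of MRPL7 and MRPL21 became -0.16 and -0.12. MRPS12 (Cre02.g144400, chromosome 2, 7441241 to 7445430), whose bacterial counterpart sits at the decoding site, was the fifth highest at 8.55 and 15.1 FPKM, a log2 ratio of 0.75. The gene whose deposited locus covers that of MRPS12 stood at 2.73 and 6.28 FPKM. MRPL23, at 0.74, lay beside MRPS12.

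The lowest of the compared members were a mixed group. MRPS29, named for a GTP-binding protein of the small subunit that bacteria lack, stood at 7.46 FPKM untreated and 7.01 exposed, a log2 ratio of -0.08, and MRPS6 had a ratio of 0.06. MRPL36, the counterpart of a small bacterial zinc-binding protein, stood at 9.83 and 12.1 FPKM, MRPS2, a small-subunit protein of bacterial descent, at 8.25 and 10.9, and MRPL43, a large-subunit protein outside the bacterial set, at 6.93 and 9.38. Among the 14 members below the filter ratios ran from -0.45 for MRPS17 to 0.45 for MRPL16, which stood at 3.57 and 5.26 FPKM and whose bacterial counterpart lies in the peptidyl transferase region. MRPS34, a mitochondrial small-subunit protein, stood lower with AgNPs, at 4.79 and 3.53 FPKM, and MRPS19, of the small subunit's head, likewise, at 2.72 and 2.03.

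**Figure D2:**
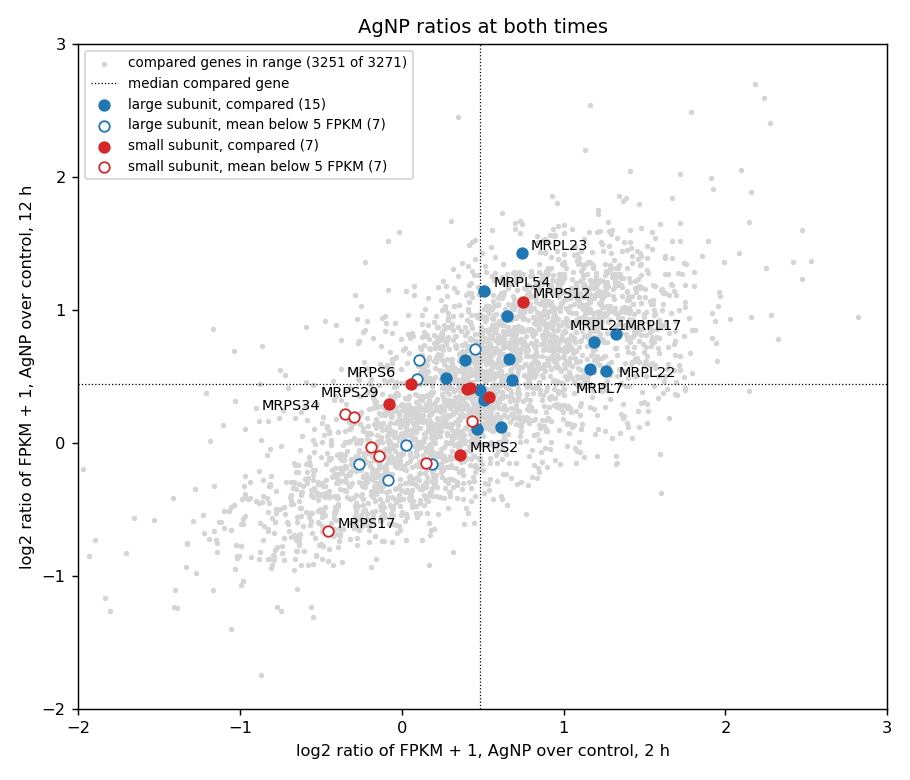
Log2 ratio of FPKM + 1, AgNP over control, at 2 h (horizontal) and at 12 h (vertical), for the 36 mitochondrial ribosomal protein genes (filled where the mean is at least 5 FPKM) over the other compared genes in grey, with dotted lines at the median compared gene. MRPL17, MRPL21, MRPL22 and MRPL7 lie farthest right, and MRPL23, MRPL54 and MRPS12 lie highest.

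The second comparison asked the same after 12 h. The compared members again stood near the median compared gene, with a median log2 ratio of 0.48 against 0.44, 13 of 22 above it and 21 positive. At least 2-fold higher were 3 of 22 (13.6%) and 0 were lower, beside 16.7% and 0.459% of all compared genes. Over all 36 members 3 (8.33%) were higher and 0 lower, beside 4.29% and 0.336% without a filter. Without a filter the median of the 36 members was 0.40 above that of all genes, with 27 of 36 above the median gene. Centred on the median compared gene 0 were past 2-fold either way, with a background of 3.03% and 5.35%.

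Other members led at 12 h than at 2 h. MRPL23 (Cre17.g727350, chromosome 17, 3730690 to 3732121) stood at 10.4 FPKM in the control and 29.7 with AgNPs, a log2 ratio of 1.42 that exceeded 96.7% of all compared genes. MRPL54 (Cre12.g546000, chromosome 12, 8717274 to 8719215), a large-subunit protein outside the bacterial set, stood at 5.27 and 12.8 FPKM, a ratio of 1.14, and MRPS12 at 7.27 and 16.3, a ratio of 1.06. All 3 had higher values in both AgNP libraries than in either control. MRPL14, whose bacterial counterpart takes part in a bridge between the subunits, followed at 10.6 and 21.4 FPKM with 0.95, and MRPL17 with 0.82. With a pseudocount of 5 only MRPL23 of these stayed past 2-fold.

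Lowest of the compared members at 12 h was MRPS2, at 9.66 FPKM in the control and 9.0 with AgNPs, a log2 ratio of -0.09. Then came MRPL2 (5.79 and 6.31 FPKM), MRPL3 (7.95 and 8.74) and, after MRPS29 (6.14 and 7.75), MRPL4 (11.4 and 14.5). MRPL2, MRPL3 and MRPL4 have bacterial counterparts in or around the peptidyl transferase region, and all 3 had positive but small ratios, of 0.11, 0.12 and 0.33. MRPL16, the fourth measured gene of that region, stood at 1.61 and 3.25 FPKM, a ratio of 0.70 at a level below the filter. MRPS17 had the lowest ratio of all 36, -0.66, at 0.846 FPKM in the control and 0.165 with AgNPs.

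Taking both exposures, 20 of the 22 compared members had positive ratios at both times (90.9%, beside 67.7% of all compared genes), 0 had negative ratios at both and 0 were at least 2-fold higher at both, beside 9.54% of all compared genes. Over all 36 members 24 were positive at both times and 5 negative at both. The highest of the 4 values fell in an AgNP library for all 22 compared members, in 11 at 2 h and in 11 at 12 h, whereas 14.7% of all compared genes were highest in the control of 2 h and 7.34% in that of 12 h. Since 2 of the 22 passed the filter only through their AgNP libraries, the 36 members count beside it: 28 were highest in an AgNP library, 7 in the control of 2 h and 1 in that of 12 h. Matching shares of all genes without a filter were not taken. The counts over all 36 members here thus have no background and are given as a description. These signs rest on the deposited scaling, and with equal sums the median ratio of the 22 became -0.68 at 2 h and -0.01 at 12 h, while the median compared gene shifted with it.

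By subunit, the large-subunit genes stood higher in both comparisons. Their 15 compared genes had medians of 0.65 at 2 h and 0.55 at 12 h, with 12 and 11 above the median compared gene, against medians of 0.40 and 0.40 for the 7 small-subunit genes, with 2 and 2 above. All 15 compared large-subunit genes had positive ratios at both times, and so had 5 of the 7 small-subunit genes, MRPS29 and MRPS2 being the exceptions. Of all compared genes 67.7% were positive at both. The filter shaped the 15, since MRPL22 and MRPL19 passed it, and MRPL11 missed it, only through the AgNP libraries. Without it 20 of 22 large-subunit genes were positive at 2 h and 18 at 12 h, and of 14 small-subunit genes 8 and 9. The median gene without a filter lay at -0.0044 and -0.0020. Over all members the medians were 0.50 and 0.51 for 22 large-subunit genes and 0.10 and 0.20 for 14 small-subunit genes. The small-subunit genes were also the less abundant ones, and the part of abundance in this difference was not tested. Members numbered as bacterial proteins (19 compared) had medians of 0.62 and 0.48, and the 3 compared ones outside that set, MRPL43, MRPL54 and MRPS29, had 0.39 and 0.63.

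Abundant members tended to have higher AgNP ratios than scarce ones. Levels in the libraries of the other time were used for this, so that a ratio and a level shared no library. Over the 36 genes the Spearman coefficient between the 2 h ratio and the mean of both 12 h libraries was 0.71, and that between the 12 h ratio and the mean of both 2 h libraries was 0.68, beside 0.33 and 0.21 over the 16071 genes above 0 in any library. Among the 22 compared members the coefficients were 0.33 and 0.55, beside 0.46 and 0.18 over all 3271 compared genes, lower than those genes at 2 h and higher at 12 h. The pseudocount draws the ratios of scarce genes toward 0. The 18 more abundant members had median FPKM quotients, AgNP over control with no pseudocount, of 1.61 at 2 h and 1.5 at 12 h, and the 18 less abundant ones of 1.09 and 1.19. The quotient was above 1 in 17 and 17 of the former and in 11 and 10 of the latter. All genes were not split in the same way, so these quotients and counts have no background. The coefficients above were positive over all genes too. The time ratios also went with abundance, here the mean of all 4 libraries, which shares libraries with the ratio. Over the 22 compared members the coefficients were 0.55 in the controls and 0.72 with AgNPs, beside 0.24 and 0.17 over all compared genes. Over the 36 members they were 0.755 and 0.759. The tendency was thus not particular to the AgNP comparisons. Low values come from few fragments and are the least precise, and the part of this in the result was not tested.

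The effect at 12 h minus that at 2 h was under 2-fold for each of the 36 members. Its median over the 22 was -0.06, equal to that of all compared genes (-0.06), and 0 of the 22 were 2-fold apart either way, beside 1.77% upward and 2.93% downward in the background. MRPL23 (0.69) and MRPL54 (0.63) had the largest upward differences of the 22 on the log2 scale, exceeding 95.0% and 93.8% of all compared genes, followed by MRPS6 (0.39) and MRPS29 (0.37). MRPL22 (-0.72), MRPL7 (-0.61), MRPL17 (-0.50) and MRPL3 (-0.49) had the largest downward ones. Among the members below the filter MRPS34 (0.57), MRPL13 (0.52) and MRPS19 (0.49) had upward differences above that of MRPS6. With equal sums 6 of the 22 were at least 2-fold higher and 0 lower, beside 24.1% and 0.275% of all compared genes. Of the 3 large-subunit genes past 2-fold at 2 h that are also the most abundant, none was past it at 12 h. Among all compared genes 721 were at least 2-fold higher at 2 h and 312 at both times. Most genes past 2-fold at 2 h were thus not past it at 12 h.

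The remaining comparisons set 12 h against 2 h, without and with AgNPs. In the controls the mitochondrial ribosomal protein genes lay below the median gene: the median log2 ratio of the 22 was 0.02 against 0.26, with 17 of 22 below it and 11 positive. In this comparison 0 of 22 were at least 2-fold higher and 0 lower, beside 20.2% and 7.80% of all compared genes. Over all 36 members 0 were higher and 1 (2.78%) lower, beside 6.36% and 3.43% without a filter, and the 1 was MRPS17. With AgNPs the median was 0.00 against 0.20, with 18 of 22 below it, and again 0 were higher and 0 lower, beside 17.1% and 8.07%. Over all 36 members 0 were higher and 1 lower, MRPS17 again, beside 5.99% and 3.09%. The compared members thus kept within 2-fold over time in both pairs of libraries on the deposited scaling. With libraries scaled to equal sums 14 of the 22 were 2-fold or more lower at 12 h in the controls and 0 higher, beside 43.6% and 2.57% of all compared genes.

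In the controls the highest time ratios belonged to MRPL7 (0.73), MRPL21 (0.70), MRPL17 (0.66) and MRPL22 (0.44), the same 4 genes that led the AgNP comparison at 2 h. Both comparisons use the 2 h control, in which these 4 genes had their lowest values. Lowest were MRPL54 (8.52 FPKM at 2 h and 5.27 at 12 h, a log2 ratio of -0.60), MRPL19 (5.12 and 3.37, -0.49), MRPS29 (-0.24) and MRPS12 (-0.21). With AgNPs the highest were MRPL23 (17.1 FPKM at 2 h and 29.7 at 12 h, 0.76), MRPS6 (20.3 and 33.9, 0.71), MRPL36 (0.33) and MRPL21 (0.27). Lowest were MRPL19, a protein between the subunits in bacteria, at 7.56 and 4.76 FPKM (-0.57), MRPL3 (-0.42), MRPL2 (-0.40) and MRPL1 (-0.29), the counterpart of a bacterial protein at the exit for spent tRNA. MRPL19 was thus lower at 12 h with and without AgNPs, and MRPL54 in the controls only, with 12.5 and 12.8 FPKM in the AgNP libraries; that difference between the pairs of libraries was not tested. Below the filter the time ratio was positive for 1 of 14 members in the controls (MRPS15, 0.20) and for 0 of 14 with AgNPs, and MRPS17 had the lowest in both pairs (-1.09 and -1.30).

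The 2 h AgNP library was also set against the 12 h control, which shares no library with the 2 h comparison except the exposed one and adds the time difference. In FPKM 34 of 36 members were higher in the 2 h AgNP library than in the 12 h control, against 28 higher than in the 2 h control. The shares of all genes higher in the same pairs of libraries were not taken, so these 2 counts have no background. The median of the 22 then lay 0.35 above that of all compared genes, in place of 0.04, and 18 of 22 lay above the median gene, while 1 was at least 2-fold higher and 0 lower, beside 13.0% and 7.46% of all compared genes.

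**Figure D3:**
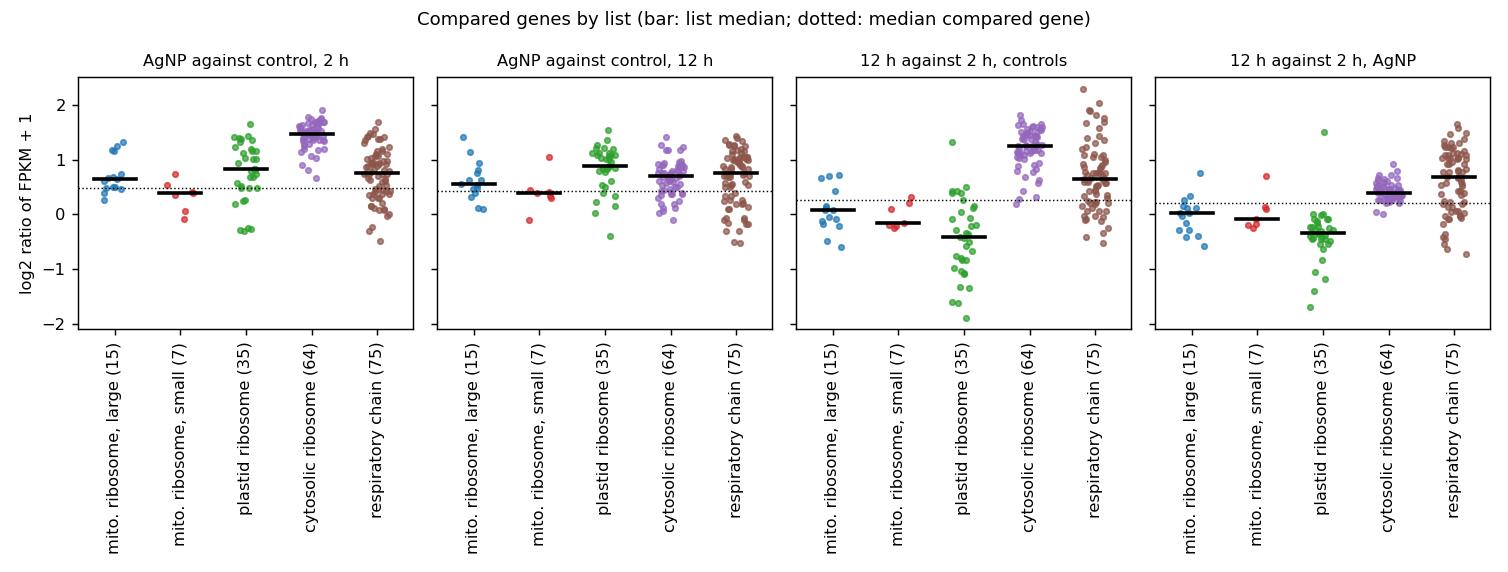
Log2 ratio of FPKM + 1 in the 4 comparisons for compared genes of both subunits of the mitochondrial ribosome, the plastid and cytosolic ribosomes and the respiratory chain with the mitochondrial ATP synthase, with a black bar at each list's median and a dotted line at the median compared gene. With AgNPs the large-subunit median lies somewhat above the dotted line and the small-subunit median somewhat below it, and over time both lie below it. The cytosolic list lies far above the dotted line for AgNPs at 2 h and for time in the controls.

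Of the 3 ribosomes of the cell the mitochondrial one had the lowest medians with AgNPs, and over time its medians lay between those of the other two. With AgNPs at 2 h the median log2 ratio was 0.52 for its 22 compared members, 0.83 for 35 plastid and 1.48 for 64 cytosolic ribosomal protein genes, and at 12 h it was 0.48, 0.89 and 0.71. From 2 h to 12 h in the controls the medians were 0.02, -0.41 and 1.26, and with AgNPs 0.00, -0.35 and 0.40. At least 2-fold higher at 2 h were 4 of 22 mitochondrial, 15 of 35 plastid and 61 of 64 cytosolic genes. These are shares of 18.2%, 42.9% and 95.3%, beside 22.0% of all compared genes, so the mitochondrial share is near the background. The respiratory chain and mitochondrial ATP synthase, some of whose subunits these ribosomes make, had 75 compared genes with medians of 0.76 at 2 h and 0.76 at 12 h with AgNPs, and of 0.65 and 0.70 over time. Mitochondrial protein import genes, 12 compared, had medians of 0.12 and 0.30 for exposure and of -0.06 and -0.02 for time. These lists differ in abundance and gene span, and their differences are given without a test.

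Gene span, the length of the locus with introns, gave another background for the members. In all 4 comparisons short genes had higher ratios than long ones: in the shortest eighth of compared genes (357 to 1770 bp) the median was 0.97 (log2) for exposure at 2 h, 0.87 at 12 h, 0.78 for time in the controls and 0.71 with AgNPs, and in the longest eighth (from 5882 bp) it was -0.02, -0.17, -0.23 and -0.38. Mitochondrial ribosomal protein genes are short, with a median span of 2158 bp (1424 to 4192) against 3202 bp for all compared genes, and none of them lies in either of the 2 longest eighths. Set against genes of their own eighth, only 7 of 22 compared members were above the median at 2 h and 8 of 22 at 12 h, and for time 4 of 22 without AgNPs and 3 of 22 with them. Over all 36 members the counts were 7, 9, 5 and 3. The medians of the eighths come from compared genes only, so the 14 members below the filter are set against more abundant genes there.

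**Figure D4:**
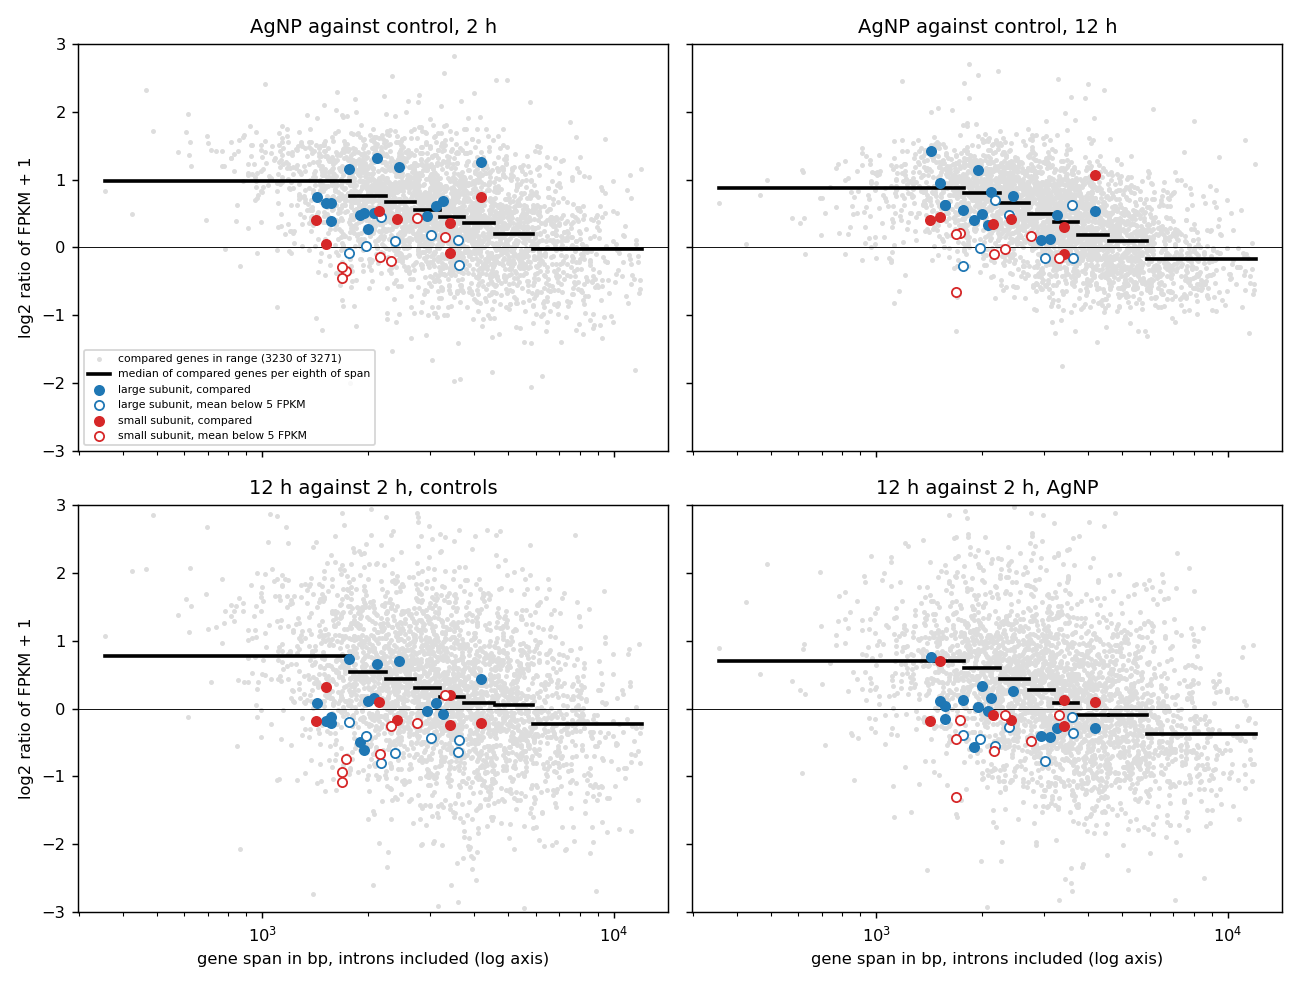
Log2 ratio of FPKM + 1 against gene span on a log axis in the 4 comparisons, with compared genes in grey, black lines at the median of each eighth of span and the 36 mitochondrial ribosomal protein genes in colour, open where the mean is below 5 FPKM. Most members lie under the black line of their eighth. MRPL22 and MRPS12, with the longest deposited spans among them, lie above it for AgNPs at both times, and the end of MRPS12 differs from RefSeq's.

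In the shortest eighth the 7 compared members had a median log2 ratio of 0.65 at 2 h against 0.97 for all 409 genes there, and -0.12 against 0.78 for time in the controls. In the next eighth (1771 to 2245 bp) 6 compared members had 0.51 against 0.76, and 0.11 against 0.55. The compared members' place near the median compared gene at both exposures thus became a place below genes of like span: after removal of a lowess trend with span their median was -0.19 at 2 h, -0.23 at 12 h, -0.40 for time in the controls and -0.51 with AgNPs. Past 2-fold after that removal were 0 of the 22 at 2 h and 0 at 12 h, with a background of 4.49% higher and 4.71% lower at 2 h and of 2.48% and 2.60% at 12 h. Over time 0 of the 22 were higher, beside 11.2% of compared genes in the controls and 10.6% with AgNPs. Lower in the controls were 2 (background 11.0%), MRPL54 at -1.15 and MRPL19 at -1.05, and lower with AgNPs was 1 (background 8.71%), MRPL19 at -1.14. With the same trend taken from all 36 members 0 were higher in any of the 4 comparisons, beside 1.16%, 0.740%, 3.83% and 4.41% of the 16071 genes above 0, in the order of the comparisons. Lower at 2 h were 3 members (8.33%), MRPS17, MRPS34 and MRPS19 at -1.28, -1.17 and -1.13, beside 5.44%, and lower at 12 h were 2 (5.56%), MRPS17 at -1.49 and MRPL11 at -1.09, beside 2.93%. Lower over time were 8 members (22.2%) in the controls, beside 5.86%, and 5 (13.9%) with AgNPs, beside 3.88%. The trend was fitted on compared genes only, which are more abundant than most of the 16071. MRPL22, with a span of 4192 bp, stood highest against the trend at 2 h, at 0.95, and MRPS12, with 4190 bp, at 12 h, at 0.85. The deposited end of MRPS12 differs from RefSeq's, so its span and its place against the trend are uncertain. MRPS6, with 1513 bp, stood lowest of the compared members at 2 h, at -0.83. Among the 22 members themselves ratios at 2 h hardly went with span (Spearman coefficient 0.15, against -0.43 over all compared genes), while at 12 h they did so more (-0.35 against -0.53). Transcript lengths were not used here, and the part of span in these results was not tested further.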

How the data were processed

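Messenger RNA of 4 Chlamydomonas libraries was measured by Illumina sequencing from Trizol-extracted RNA, per the labels' protocols. The authors deposited 1 FPKM value for each gene, per the file headers. Per the submitters' processing notes Cuffdiff was used, with no version stated. The sources used here do not name the aligner, build, filters or library scaling. Identifiers end in the annotation version, 5.5. Deposited starts count from 0 and were raised by 1, after which all 36 members' starts equalled RefSeq's. The ends of 35 equalled RefSeq's, and that of MRPS12 did not. RefSeq's table (assembly Chlamydomonas_reinhardtii_v5.5) was used for matching only.

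Groups came from sample titles, in which CK is the control. The members and gene lists were chosen with earlier results of these data known. Any member could be named. Values were given for the 5 highest and 5 lowest compared members in each AgNP comparison, the 4 highest and 4 lowest over time and for the difference of effects, and the most and least abundant 5. Log2 ratios used a pseudocount of 1, an average of at least 5 FPKM, and 2-fold as the size that was counted. The lowess trend (fraction 0.5) was fitted on log2 span of all compared genes, and eighths of span were cut from the same genes. A model of exposure with time as a block, possible with 1 residual degree of freedom, was not fitted, since its residual would be the difference of effects and no replicate error. FPKM hold no counts, so read depth is unknown and no counting interval is given. Relative depth was read from the commonest ratio between libraries among values under 0.2 FPKM, at which 10.0% to 14.0% of low genes lay within 0.05 (log2), a minority, and it also holds the unknown scaling. The code was checked on simulated data. Alternatives were pseudocounts of 0.1 and 5, no filter, a mean of at least 20 FPKM, centring on the median compared gene, equal FPKM sums, removal of the span trend and the 12 h control as reference for the 2 h AgNP library. For the difference of effects they were added after seeing the data. Software was pandas 2.3.3 and numpy 2.4.6 on Python 3.11.15, with statsmodels 0.14.6 for the trend and matplotlib 3.10.9 for plots.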

Additional observations from a re-analysis of the deposited data

Results flagged for a closer look

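For 7 of the 36 members the AgNP ratios at 2 h and 12 h had opposite signs, each from 1 pair of libraries, and the difference was not tested. As 12 h minus 2 h on the log2(FPKM + 1) scale it was 0.57 for MRPS34 (-0.35 and 0.22), 0.49 for MRPS19 (-0.29 and 0.19), 0.37 for MRPS29 (-0.08 and 0.29), -0.45 for MRPS2 (0.36 and -0.09), -0.35 for MRPL45 (0.19 and -0.16), -0.30 for MRPS15 (0.15 and -0.15) and -0.037 for MRPL30 (0.024 and -0.013). All 7 differences are under 2-fold. MRPS29 and MRPS2 are the only compared members among the 7, and the other 5 have a mean below 5 FPKM. Opposite signs were thus found in 2 of the 22 compared members (9.09%), beside 15.96% of all compared genes. A matching share of all genes without a filter was not taken, so the 7 of 36 have no background.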

How the results depend on the processing

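Each group holds 1 library, so no replicate could be paired or left out, and a model of exposure with time as a block was not run. The distance of the members' median from that of all compared genes was 0.043 for AgNPs at 2 h, 0.043 at 12 h, -0.24 for time in the controls, -0.20 for time with AgNPs and -0.001 for the difference of effects. Centring and equal sums kept the signs of these distances. With no filter, over 36 members, the first 2 were larger, at 0.41 and 0.40, and the others were -0.18, -0.17 and -0.03. Removal of the span trend turned the first 2 to -0.20 and -0.24. A mean of at least 20 FPKM, which leaves 4 members, moved the distance at 2 h to 0.37 and that of the difference of effects to -0.37, and turned that at 12 h to -0.058 and that for time in the controls to 0.15. A pseudocount of 0.1 turned the difference of effects to 0.034. The 4 members at least 2-fold higher at 2 h became 0 with centring, equal sums or span removal and 1 with the 12 h control as reference, and equal sums put 2 lower, beside 0.795% of all compared genes higher and 35.6% lower. The 3 at 12 h became 1 with a pseudocount of 5 and 0 with a mean of at least 20 FPKM, centring, equal sums or span removal. Over time in the controls 0 lower became 1 with no filter, 14 with equal sums and 2 with span removal. The shares of all genes lower there were 3.43%, 43.6% and 11.0% in the same order. With AgNPs 0 lower became 1 with no filter and 1 with span removal, beside 3.09% and 8.71%. For the difference of effects 0 higher became 6 with equal sums, beside 24.1% of all compared genes, since that scaling shifts them all. The ratios of MRPL7 and MRPL21 at 2 h turned to -0.16 and -0.12 with equal sums. The causes of these changes were not tested, beyond the fewer genes that a stricter filter leaves and the shift that a scaling applies to all genes. The 2 h control, on which 2 of the comparisons rest, had the lowest FPKM sum.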
